A study of Mus musculus with 12 samples.

Results

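The genes described here are 10 formative and primed pluripotency markers: Otx2, Fgf5, Pou3f1, Zic2, Sox3, Nodal, Lefty1, Lefty2, Tdgf1 and Foxd3. The rule gives them by name and uses no measured value, although the list was drawn up with earlier results of these data known. All 10 were found among the 43346 genes of the deposited table and passed the filter on low counts, which left 17148 genes. RNA from mouse embryonic stem cells was sequenced in 12 libraries, 3 per group in 4 groups. B6 is C57BL/6J and D2 is DBA/2J, inbred mouse strains. B6-13D2, labelled B6.D2-(rs30079041-rs51756099)/Bakr, carries a chromosome 13 segment of D2 on the B6 background. D2-13B6, labelled D2.B6-(rs29224292-rs13469455)/Bakr, carries a B6 segment on the D2 background, and the series text gives rs51756099 as its far end. All groups grew in medium with 15% serum, LIF, 1 µM PD0325901 (a MEK inhibitor) and 3 µM CHIR99021 (a GSK3 inhibitor).

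The protocol describes independent cultures of a single cell line per strain, so strain and line cannot be told apart. Against this, both the titles and the cell line field name line B6 4-1 for B6 replicate 3 and B6 5-1 for the other B6 libraries. By these labels the B6 group, and each comparison with it, holds more than a single line. The titles call the libraries technical replicates and name D2 2-9 where the cell line field has D2 5-5. The p-values therefore measure the spread between these libraries, which may be partly technical and, in B6, partly between lines. None of the 10 genes lies on chromosome 13.

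Mouse embryonic stem cells kept with LIF and inhibitors of MEK and GSK3 are held near the naive state, which corresponds to the epiblast before implantation. On leaving it, cells pass through a formative state and then a primed one, which corresponds to the epiblast after implantation. Nodal, a secreted ligand of the TGF-beta family, signals with its co-receptor Tdgf1 (Cripto) through activin receptors to SMAD2 and SMAD3. Lefty1 and Lefty2 are secreted inhibitors of Nodal and are themselves switched on by Nodal signalling. Otx2, Pou3f1 (Oct6), Zic2, Sox3 and Foxd3 are transcription factors of the epiblast, and Fgf5 is a growth factor gene used as a marker of the epiblast after implantation.

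Lefty1 and Lefty2 lie next to each other on chromosome 1 and are near copies, so a stretch of each is given first, because how reads divide between them bears on every Lefty value. Their annotated coding sequences have 1104 bases each and were identical at 1014 aligned positions, or 91.85%. The stretch below, coding bases 35 to 124 in coding exon 1, is the one of 90 bases with the most differences, 27. Capitals mark the bases that differ. Positions and sequences are those of the GENCODE M21 annotation (GRCm38), a C57BL/6J reference, and both genes are on the plus strand.
Lefty1, chr1:180935144-180935233: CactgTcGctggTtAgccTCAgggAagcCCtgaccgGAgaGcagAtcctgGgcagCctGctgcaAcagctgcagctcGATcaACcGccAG
Lefty2, chr1:180893218-180893307: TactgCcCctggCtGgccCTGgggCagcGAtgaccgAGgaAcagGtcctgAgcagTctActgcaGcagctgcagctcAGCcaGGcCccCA

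Reads were 150 bases long. Over all annotated transcripts, 12 of 1607 stretches of that length in Lefty1 also occurred in Lefty2, which is 0.75%. The deposited values of Lefty1 and Lefty2 were whole numbers in 0 of 12 libraries. Tdgf1, which shares 5 such stretches with its pseudogene Tdgf1-ps1, was whole in 7 of 12, and the other members were whole in all 12. Lefty1 and Lefty2 are accordingly given below both apart and summed. Strand use in the counting is not given in the sources used here. The antisense genes over members, Otx2os1 and Gm2164 (over Pou3f1), had at most 3 counts and 1 count in a library.

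Levels of different genes were compared as CPM (counts scaled to a common library total) per kilobase of merged exons, averaged over the 12 libraries. Genes of the Nodal pathway, Tdgf1, Lefty2 and Nodal, had the highest levels. Tdgf1 had 180.5 ± 45.8 CPM per kilobase (SD, n = 12), above 98.8% of the tested protein-coding genes. Lefty2 followed at 60.0 ± 21.6 and Nodal at 34.8 ± 6.20 CPM per kilobase. Zic2 stood at 18.5 ± 2.05, Foxd3 at 17.0 ± 5.40 and Lefty1 at 9.41 ± 2.85 CPM per kilobase. The lowest were Pou3f1 at 1.36 ± 0.308, Sox3 at 0.984 ± 0.285, Otx2 at 0.643 ± 0.107 and Fgf5 at 0.198 ± 0.125 CPM per kilobase. Fgf5 was above only 8.4% of the tested protein-coding genes, and Otx2 above 20.2%. Library ranges of neighbours in this order overlapped except at Tdgf1 over Lefty2, Nodal over Zic2 and Lefty1 over Pou3f1. Within single groups the order turned at some places. In B6, Nodal (38.5 CPM per kilobase) was above Lefty2 (28.5) and Foxd3 (25.8) above Zic2 (19.6), and in B6-13D2, Otx2 (0.758) was above Sox3 (0.642). With the longest transcript as the length, only Sox3 and Otx2 exchanged places.

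Libraries held 22184196 to 36411799 expected counts. The labelled cell type was checked against 5 embryonic stem cell markers (Pou5f1, Sox2, Nanog, Zfp42 and Esrrb), all detected in every library. Their summed level was 2374 to 2561 CPM for B6, 1887 to 1915 for D2, 2711 to 2866 for B6-13D2 and 2199 to 2223 for D2-13B6. The 8 fibroblast markers (Col1a1, Col1a2, Col3a1, Thy1, Pdgfrb, Lum, Dcn and Postn) were all detected too. Their sum was 9383 to 10191 CPM for B6, 14177 to 16967 for D2, 3095 to 3182 for B6-13D2 and 7731 to 8055 for D2-13B6. The groups did not overlap in either sum. B6-13D2 had the highest stem cell sum and the lowest fibroblast sum, D2 the lowest stem cell and the highest fibroblast sum, and B6 was above D2-13B6 in both. All 8 fibroblast markers were higher in D2 than in B6, all 8 were lower in B6-13D2 than in B6, and 7 were lower in D2-13B6 than in D2 at an adjusted p under 0.05. The growth protocol mentions no feeder cells. In bulk RNA, fewer cells of a type and less RNA per cell cannot be told apart, and the part of these sums in the members' differences was not tested. A fit with library sizes set to the summed counts of the 5 stem cell markers was added after these sums were seen, and its values are given beside the members' differences. Of these markers Esrrb (-0.40), Nanog (-0.38), Pou5f1 (-0.38) and Sox2 (-0.29) were themselves lower in D2 than in B6 in log2 fold change. Zfp42 (-0.13) did not reach an adjusted p under 0.05. The scaling therefore cannot separate the share of stem cells from changes of these genes within the cells.

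The 7 primitive endoderm markers summed to 33.1 to 34.5 CPM for B6, 42.2 to 45.7 for D2, 15.8 to 16.2 for B6-13D2 and 37.7 to 39.4 for D2-13B6. Dab2 made up the largest part, with group means of 21.7, 29.7, 7.92 and 21.9 CPM in that order. Like the fibroblast marker sum, it was highest in D2 and lowest in B6-13D2, and the part of fibroblast RNA in it was not tested. Gata4, Sox7, Sox17 and Pdgfra had their highest means in groups other than D2. The 7 trophoblast markers summed to 12.3 to 13.5, 12.7 to 16.6, 15.8 to 16.9 and 18.7 to 21.2 CPM in the same order, with Tpbpa at 0 in 11 of 12 libraries. Called genes of the first list numbered 4 higher and 1 lower for D2 over B6, 0 and 3 for B6-13D2 over B6, and 2 and 2 for D2-13B6 over D2. For the 5 trophoblast markers tested they were 1 and 2, 2 and 2, and 2 and 1. In the fit scaled to the stem cell markers these counts were 5 and 1, 0 and 4, and 1 and 2 for the first list, and 3 and 1, 1 and 3, and 2 and 2 for the trophoblast markers. Of all genes 29.8% and 30.3%, 25.4% and 32.9%, and 27.6% and 29.7% were called higher and lower with TMM. In the scaled fit these shares were 61.0% and 9.91%, 12.8% and 47.3%, and 13.6% and 48.1%.

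**Figure D1:**
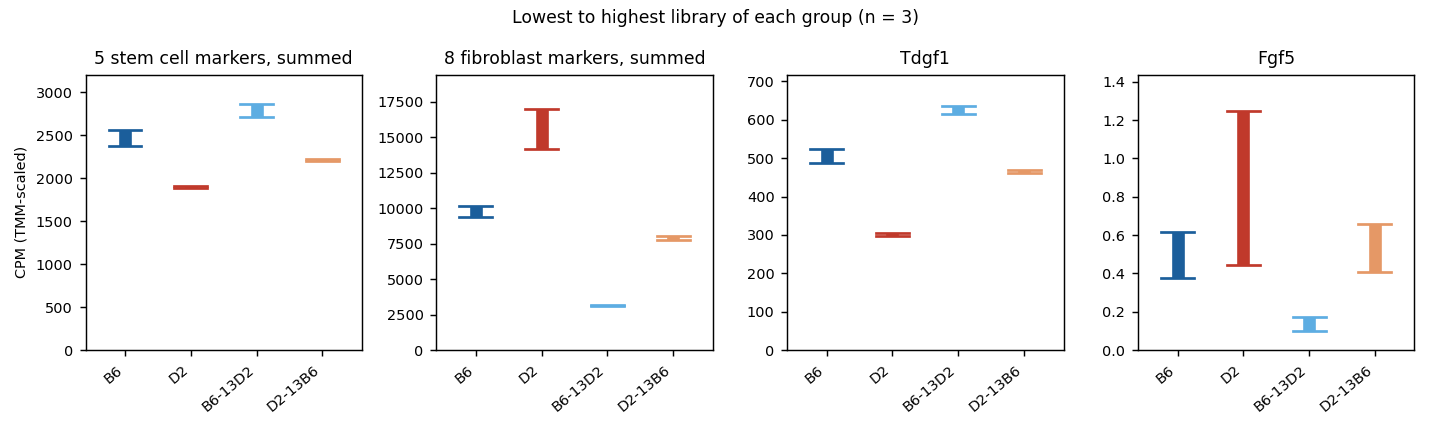
Summed CPM of 5 stem cell markers and of 8 fibroblast markers, with CPM of Tdgf1 and Fgf5, as bars from the lowest to the highest library of each group (n = 3). B6-13D2 has the highest stem cell marker sum and Tdgf1, and the lowest fibroblast marker sum and Fgf5.

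**Figure D2:**
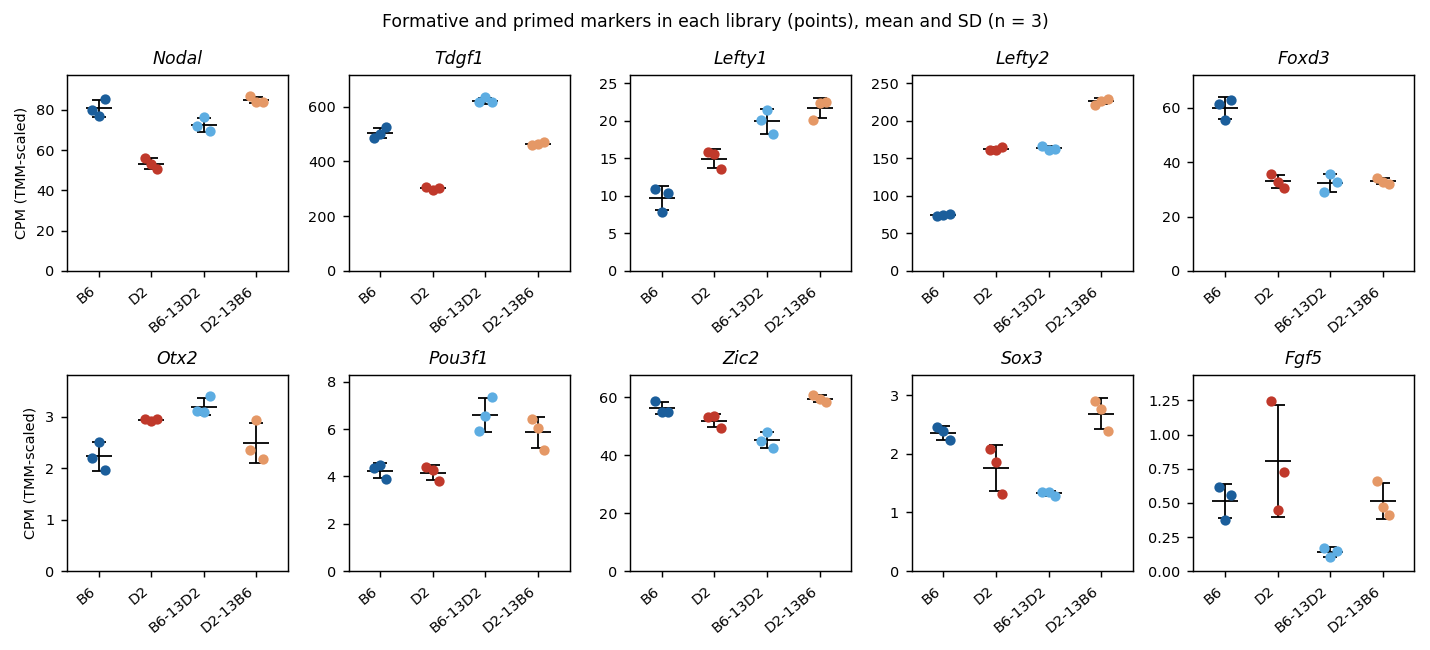
Each panel is a member, with TMM-scaled CPM on the vertical axis and the 4 groups on the horizontal axis. Points are libraries and bars are the mean and SD (n = 3). Lefty2 rises from 73.6 to 75.5 CPM in B6 to 221.7 to 229.7 in D2-13B6, while Foxd3 is at 55.4 to 62.9 CPM in B6 and at most 35.6 elsewhere.

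A member is said to be called where edgeR's quasi-likelihood test gave a Benjamini-Hochberg adjusted p under 0.05 over all tested genes. Between the parental strains, Lefty2, Lefty1 and Otx2 were higher and Foxd3, Tdgf1 and Nodal lower in D2, so 6 of 10 members were called. Of all tested genes 60.0% were called, 29.8% higher and 30.3% lower. For B6-13D2 over B6 all 10 were called, 5 in each direction, where 58.3% of all genes were called, 25.4% higher and 32.9% lower. For D2-13B6 over D2, 7 were called and all 7 were higher, where 57.3% of all genes were called, 27.6% higher and 29.7% lower. The median of the members' log2 fold changes was -0.07, 0.08 and 0.49 in these comparisons, beside 0.01, -0.04 and 0.00 over all genes. The members' median absolute log2 fold change was 0.60, 0.73 and 0.51, beside 0.33, 0.32 and 0.31 over all genes. D2 against B6 shares a group with each of the other comparisons, so they are not independent.

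With the stem cell marker scaling, 9 members were called for D2 over B6, 6 higher and 3 lower, where 70.9% of all genes were called, 61.0% higher and 9.91% lower. For B6-13D2 over B6, 9 were called, 4 higher and 5 lower, where 60.1% of all genes were called, 12.8% higher and 47.3% lower. For D2-13B6 over D2, 6 were called, 4 higher and 2 lower, where 61.7% of all genes were called, 13.6% higher and 48.1% lower. That scaling moved the median log2 fold change of all genes by 0.36, -0.19 and -0.22.

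**Figure D3:**
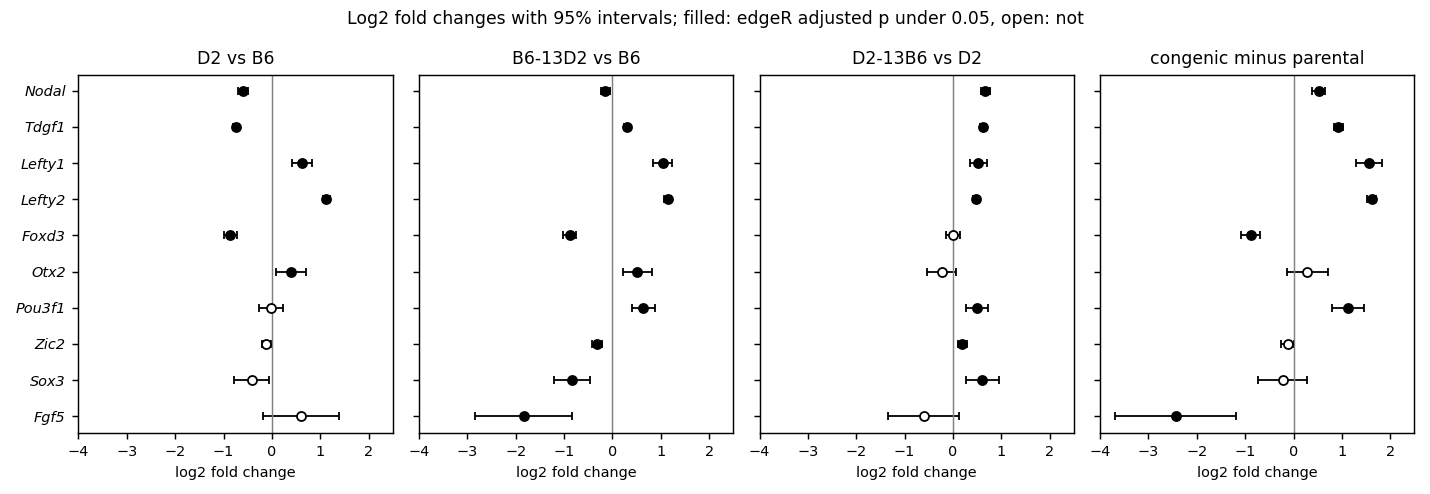
Log2 fold change of each member (horizontal axis) in 4 comparisons, with 95% intervals. Filled points passed an adjusted p of 0.05 and open points did not. Foxd3 stands at -0.86 and -0.89 against B6 and at 0.00 for D2-13B6 over D2.

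Nodal, the ligand, lies at chr10:61417972-61425338 on the plus strand. Its level was 79.9, 77.1 and 85.2 CPM in B6 and 55.9, 53.3 and 50.6 in D2. It was 72.0, 76.3 and 69.5 CPM in B6-13D2 and 86.9, 83.8 and 84.1 in D2-13B6. D2 was lowest and overlapped no other group, B6-13D2 lay just below B6, and B6 and D2-13B6 overlapped. The log2 fold change of D2 against B6 was -0.60 (SE 0.0487, adjusted p = 1.01e-08, edgeR). D2-13B6 exceeded D2 by a log2 fold change of 0.67 (SE 0.0475, adjusted p = 1.34e-09). B6-13D2 was lower than B6 by a log2 fold change of -0.15 (SE 0.0473, adjusted p = 0.0102). This last call was lost without B6 replicate 3 (-0.11, adjusted p = 0.0688), without B6-13D2 replicate 3 (-0.12, adjusted p = 0.0650) and with RLE size factors (-0.09, adjusted p = 0.117). D2-13B6 and B6 differed by 0.07 with a 95% interval from -0.02 to 0.16, and the difference was called with RLE size factors and by DESeq2 (0.13 each). Under the stem cell marker scaling D2 against B6 was -0.24, B6-13D2 against B6 was -0.34, D2-13B6 against D2 was 0.45 and D2-13B6 against B6 was 0.22, all called.

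Tdgf1, the Nodal co-receptor, lies at chr9:110939603-110946158 on the minus strand. Libraries had 487.1, 498.8 and 525.0 CPM in B6 and 305.3, 296.0 and 304.6 in D2. They had 615.6, 635.4 and 615.8 CPM in B6-13D2 and 461.3, 464.3 and 469.6 in D2-13B6. None of the 4 groups overlapped another, and their order, B6-13D2, B6, D2-13B6, D2, was that of the stem cell marker sum. Tdgf1 was lower in D2 than in B6 by a log2 fold change of -0.74 (SE 0.0337, adjusted p = 4.92e-12). It was higher in B6-13D2 than in B6 by 0.31 (SE 0.0332, adjusted p = 3.34e-07) and higher in D2-13B6 than in D2 by 0.62 (SE 0.0335, adjusted p = 4.02e-11). Scaled to the stem cell markers these values became -0.38, 0.12 and 0.41, all still called. The lower level in D2-13B6 than in B6 (-0.12, adjusted p = 0.0064) turned to 0.03 with that scaling and lost its call with RLE size factors (-0.06, adjusted p = 0.128).

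Lefty2, a Nodal inhibitor, lies at chr1:180893108-180899103 on the plus strand. Its level was 73.6, 73.9 and 75.5 CPM for B6, 160.7, 161.0 and 165.4 for D2, 167.0, 161.2 and 163.0 for B6-13D2 and 221.7, 226.6 and 229.7 for D2-13B6. B6 was lowest and D2-13B6 highest, without overlap, and D2 and B6-13D2 overlapped in between. Against B6, Lefty2 was 2.18-fold higher in D2, or 1.13 on the log2 scale (SE 0.0337, adjusted p = 1.73e-14). B6-13D2 exceeded B6 2.20-fold, by 1.14 on the log2 scale (SE 0.0336, adjusted p = 6.4e-15), and D2-13B6 exceeded it 3.04-fold. D2-13B6 exceeded D2 by a log2 fold change of 0.48 (SE 0.0314, adjusted p = 5.48e-10). B6-13D2 and D2 differed by 0.01 with a 95% interval from -0.05 to 0.07, and by -0.53 with the stem cell marker scaling, where B6-13D2 was called lower (adjusted p = 4.292e-10). With that scaling the other differences were 1.49 for D2 against B6, 0.95 for B6-13D2 against B6 and 0.26 for D2-13B6 against D2, all called.

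Lefty1, the other inhibitor, lies at chr1:180935022-180938400. Libraries had 10.9, 7.85 and 10.3 CPM in B6 and 15.8, 15.5 and 13.6 in D2. They had 20.0, 21.4 and 18.2 CPM in B6-13D2 and 20.1, 22.3 and 22.5 in D2-13B6. B6 was lowest, D2 intermediate, and the congenic lines overlapped at the top. Lefty1 was higher in D2 than in B6 by a log2 fold change of 0.63 (SE 0.106, adjusted p = 5.5e-05) and higher in B6-13D2 than in B6 by 1.04 (SE 0.102, adjusted p = 8.51e-08). D2-13B6 exceeded D2 by 0.53 (SE 0.091, adjusted p = 8.31e-05). B6-13D2 exceeded D2 by 0.41 (adjusted p = 0.000723), which turned to -0.14 with the stem cell marker scaling (adjusted p = 0.164). The congenic lines differed by 0.12, with a 95% interval from -0.05 to 0.29, and by 0.45 with that scaling, which was called (adjusted p = 0.0001177). The differences of D2 from B6, B6-13D2 from B6 and D2-13B6 from D2 were then 0.99, 0.85 and 0.31, all called.

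Lefty1 made up 7.58% to 12.9% of the counts of both genes. The share was 9.58% to 12.9% in B6 and B6-13D2 libraries and 7.58% to 8.975% in D2 and D2-13B6 libraries, without overlap. Whether reads divide alike between the genes on both backgrounds was not tested. Summed and fitted as a single row, the pair had 81.8 to 85.8 CPM for B6, 176.5 to 179.0 for D2, 181.2 to 187.0 for B6-13D2 and 241.8 to 252.2 for D2-13B6. The summed log2 fold changes were 1.08 for D2 against B6, 1.13 for B6-13D2 against B6 and 0.48 for D2-13B6 against D2, all called. The sum did not differ by the test between B6-13D2 and D2 (0.05, SE 0.0323, adjusted p = 0.167), where Lefty1 alone did. Between the congenic lines the sum was higher in D2-13B6 by the test (0.43, SE 0.0318, adjusted p = 1.163e-09), where Lefty1 alone was not called.

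The ratio of Lefty to Nodal counts needs no scaling between libraries. It was 1.01 to 1.06 summed Lefty counts per Nodal count for B6, 3.16 to 3.54 for D2, 2.39 to 2.61 for B6-13D2 and 2.78 to 3.00 for D2-13B6. No group overlapped another, and B6 was the only group near 1 Lefty count per Nodal count. A ratio of counts shows unequal change and not which gene changed.

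**Figure D4:**
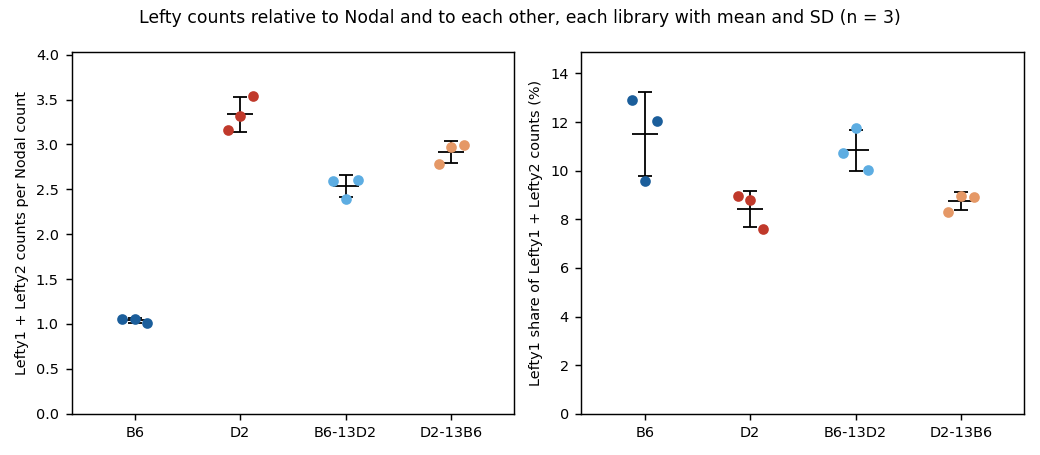
Left, summed Lefty1 and Lefty2 counts per Nodal count; right, Lefty1 as a percentage of the summed Lefty counts, for each library (points) with mean and SD (n = 3). The ratio is 1.01 to 1.06 in B6 and at least 2.39 in every other library. The Lefty1 share is 9.58% to 12.9% in B6 and B6-13D2 and 7.58% to 8.975% in D2 and D2-13B6.

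Foxd3, a forkhead factor needed for the epiblast, lies at chr4:99656299-99658622 on the plus strand. Its level was 61.6, 55.4 and 62.9 CPM for B6, 35.6, 32.8 and 30.6 for D2, 29.1, 35.6 and 32.6 for B6-13D2 and 34.3, 32.7 and 32.0 for D2-13B6. B6 stood alone, above every library of the other groups, and those groups overlapped. Foxd3 was 1.82-fold lower in D2 than in B6, with a log2 fold change of -0.86 (SE 0.0691, adjusted p = 8.49e-09). Against the same strain it was 1.85-fold lower in B6-13D2, or -0.89 on the log2 scale (SE 0.0688, adjusted p = 3.94e-09), and lower in D2-13B6 by -0.86 (adjusted p = 5.91e-09). D2-13B6 and D2 differed by 0.00 with a 95% interval from -0.14 to 0.14. That interval depends on the scaling: with library sizes set to the stem cell markers the difference was -0.22 and called (adjusted p = 0.00978). B6-13D2 and D2 differed by -0.02, with a 95% interval from -0.17 to 0.12, and by -0.57 with that scaling. The differences from B6 kept their direction and call, at -0.50 for D2, -1.07 for B6-13D2 and -0.72 for D2-13B6.

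Pou3f1, a POU factor of the epiblast and the nervous system, lies at chr4:124656807-124660655 on the plus strand. Libraries had 4.35, 4.49 and 3.90 CPM in B6 and 4.41, 4.25 and 3.82 in D2. They had 5.92, 6.54 and 7.36 CPM in B6-13D2 and 6.41, 6.03 and 5.14 in D2-13B6. The parental strains overlapped each other, the congenic lines overlapped each other, and every congenic library was above every parental one. B6-13D2 exceeded B6 by a log2 fold change of 0.63 (SE 0.12, adjusted p = 0.000198), and D2-13B6 exceeded D2 by 0.49 (SE 0.117, adjusted p = 0.00159). With the stem cell marker scaling the first was 0.45 and still called, and the second was 0.28 and not called (adjusted p = 0.0685). D2 and B6 differed by -0.02 with a 95% interval from -0.28 to 0.23, and by 0.34 with that scaling (adjusted p = 0.0371). RLE size factors also turned the sign of that difference, to 0.03.

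Otx2, a homeobox factor that acts at formative enhancers, lies at chr14:48657677-48673819 on the minus strand. It had 46 to 106 counts in a library. Its level was 2.20, 2.52 and 1.97 CPM for B6, 2.96, 2.92 and 2.96 for D2, 3.12, 3.09 and 3.40 for B6-13D2 and 2.36, 2.93 and 2.18 for D2-13B6. B6 and D2-13B6 overlapped at the low end, and D2 and B6-13D2 lay above B6 without overlap. B6-13D2 exceeded B6 by a log2 fold change of 0.52 (SE 0.157, adjusted p = 0.00862), which was 0.33 and not called with the stem cell marker scaling (adjusted p = 0.0948). D2 exceeded B6 by 0.40 (SE 0.159, adjusted p = 0.0384). That call was lost without B6 replicate 1 or 3 or any D2 replicate (adjusted p = 0.0676 to 0.140), with DESeq2 (adjusted p = 0.0538) and without the filter (adjusted p = 0.0853), while the stem cell marker scaling gave 0.76 and kept it. The lower level in D2-13B6 than in B6-13D2 (-0.35, adjusted p = 0.0395) was also lost without any B6-13D2 replicate or without D2-13B6 replicate 1 or 3 (adjusted p = 0.0551 to 0.143). It was further lost with DESeq2 (adjusted p = 0.0859), without the filter (adjusted p = 0.0856) and with the stem cell marker scaling, where the difference was -0.03 (adjusted p = 0.883). D2-13B6 and D2 differed by -0.24 with a 95% interval from -0.53 to 0.06, and by -0.45 with that scaling, which was called (adjusted p = 0.0191).

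Zic2, a zinc finger factor, lies at chr14:122475435-122479852 on the plus strand. Libraries had 58.9, 55.1 and 55.0 CPM in B6 and 53.2, 53.4 and 49.4 in D2. They had 45.0, 48.2 and 42.5 CPM in B6-13D2 and 60.7, 59.6 and 58.4 in D2-13B6. B6-13D2 was lowest without overlap, and B6 and D2-13B6 overlapped at the top. Zic2 was lower in B6-13D2 than in B6 by a log2 fold change of -0.32 (SE 0.0498, adjusted p = 2.87e-05), and by -0.50 with the stem cell marker scaling. It was higher in D2-13B6 than in D2 by 0.19 (SE 0.0479, adjusted p = 0.0021), which turned to -0.02 with that scaling (adjusted p = 0.726). D2 and B6 differed by -0.11, with a 95% interval from -0.21 to -0.02 and an adjusted p = 0.0566. That difference was called without B6-13D2 replicate 2 (adjusted p = 0.0382) or 3 (adjusted p = 0.0440), and was 0.25 and called with the stem cell marker scaling. A fit with the replicate numbers as a block called the difference too.

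Sox3, a SOX factor of the epiblast and neural plate, lies at chrX:60891366-60893430 on the minus strand. It had 29 to 106 counts in a library, with the fewest in D2 replicate 3. Its level was 2.46, 2.39 and 2.23 CPM for B6, 2.08, 1.86 and 1.32 for D2, 1.35, 1.34 and 1.28 for B6-13D2 and 2.91, 2.77 and 2.38 for D2-13B6. B6 and D2-13B6 overlapped at the top, and D2 replicate 3 lay within the range of B6-13D2. Sox3 was lower in B6-13D2 than in B6 by a log2 fold change of -0.83 (SE 0.189, adjusted p = 0.00106) and was -1.02 with the stem cell marker scaling. It was higher in D2-13B6 than in D2 by 0.60 (SE 0.174, adjusted p = 0.00646), which was 0.39 and not called with that scaling (adjusted p = 0.0735). D2 and B6 differed by -0.41 (adjusted p = 0.0598), which was called without D2 replicate 1 (-0.53, adjusted p = 0.0311) and was -0.27 without D2 replicate 3 and -0.05 with that scaling. A fit with the replicate numbers as a block also called this difference. Between the congenic lines, D2-13B6 was 2.03-fold above B6-13D2 (log2 fold change 1.02, adjusted p = 6.32e-05).

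Fgf5, the growth factor, lies at chr5:98254184-98277030 on the plus strand and had only 3 to 30 counts in a library. Its level was 0.615, 0.378 and 0.557 CPM for B6, 1.25, 0.445 and 0.728 for D2, 0.173, 0.101 and 0.151 for B6-13D2 and 0.658, 0.470 and 0.408 for D2-13B6. B6-13D2 was lowest without overlap, and the other groups overlapped one another. Fgf5 was 3.58-fold lower in B6-13D2 than in B6, with a log2 fold change of -1.84 (SE 0.511, adjusted p = 0.00497), and was lower than in D2 by -2.44 (SE 0.475, adjusted p = 0.000159). With the stem cell marker scaling these were -2.01 and -2.98, both called. D2 and B6 differed by 0.60 with a 95% interval from -0.17 to 1.38, and by 0.96 with that scaling, which was called (adjusted p = 0.0386). D2-13B6 and B6 differed by 0.00 with an interval from -0.77 to 0.77. D2-13B6 and D2 differed by -0.60, with an interval from -1.34 to 0.13, and by -0.82 with that scaling (adjusted p = 0.0692). That difference rested on single D2 libraries: it was -0.94 and called without D2 replicate 2 (adjusted p = 0.0464) and -0.12 without D2 replicate 1. The order of the groups by Fgf5 mean, D2, B6, D2-13B6 and B6-13D2, was that of the fibroblast marker sum, although B6 and D2-13B6 were nearly equal (0.517 and 0.512 CPM). Whether the Fgf5 reads come from stem cells was not tested.

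The remaining pairs of groups share libraries with those above. For B6-13D2 over D2, which carry the same segment allele on different backgrounds, 6 members were called, 4 higher and 2 lower, where 74.6% of all genes were called, 36.7% higher and 38.0% lower. Tdgf1 (1.04), Pou3f1 (0.66), Nodal (0.45) and Lefty1 (0.41) were higher, and Fgf5 (-2.44) and Zic2 (-0.20) were lower. With the stem cell marker scaling 7 were called and 6 of them were lower, where 79.1% of all genes were called, 12.2% higher and 66.9% lower. Tdgf1 was then higher (0.50), and Fgf5 (-2.98), Sox3 (-0.96), Zic2 (-0.75), Foxd3 (-0.57), Lefty2 (-0.53) and Otx2 (-0.43) were lower. Pou3f1 (0.11), Nodal (-0.10) and Lefty1 (-0.14) were not called. For D2-13B6 over B6, 5 members were called, 3 higher (Lefty2, Lefty1 and Pou3f1) and 2 lower (Foxd3 and Tdgf1, the latter turning to 0.03 with that scaling), where 59.0% of all genes were called, 24.5% higher and 34.6% lower. Between the congenic lines 7 members were called, 5 higher and 2 lower in D2-13B6, where 70.2% of all genes were called, 38.4% higher and 31.8% lower. Scaled to the stem cell markers, the former pair had 6 called, 5 higher and 1 lower, where 54.2% of all genes were called, 34.0% higher and 20.2% lower. The latter pair had 8 called, 7 higher and 1 lower, where 74.6% of all genes were called, 59.6% higher and 15.0% lower. The members' median absolute log2 fold change in these pairs was 0.41, 0.18 and 0.38, below the 0.53, 0.30 and 0.44 over all genes.

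The design also asks whether the D2 segment acts alike on both backgrounds. The test takes B6-13D2 minus B6 and subtracts D2 minus D2-13B6, on the log2 scale. By algebra this equals both congenic lines minus both parental strains, so a difference between backgrounds and anything else that the congenic libraries share cannot be told apart. The labels also name different segment ends for B6-13D2 and D2-13B6, and an effect of unequal segments cannot be told apart from these. Here 7 of 10 members were called, 5 higher and 2 lower, where 64.5% of all genes were called, 31.1% higher and 33.4% lower. Lefty2 had the largest positive value, 1.62 (SE 0.046, adjusted p = 2.18e-15), since the D2 segment went with 1.14 more on the B6 background and the B6 segment with 0.48 more on the D2 background. Lefty1 had 1.57 (SE 0.136, adjusted p = 1.37e-08) and Pou3f1 1.13 (SE 0.168, adjusted p = 1.24e-05). Tdgf1 had 0.93 (SE 0.0471, adjusted p = 7.37e-12) and Nodal 0.52 (SE 0.067, adjusted p = 2.19e-06). Foxd3 had -0.89 (SE 0.0985, adjusted p = 3.44e-07) and Fgf5 -2.44 (SE 0.635, adjusted p = 0.00269). Otx2 (0.28, adjusted p = 0.265), Zic2 (-0.12, adjusted p = 0.134) and Sox3 (-0.23, adjusted p = 0.459) did not pass the test.

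For Zic2 the call was gained without D2 replicate 3 (adjusted p = 0.0497) or B6-13D2 replicate 2 (adjusted p = 0.0381). The value was -0.08 without D2 replicate 1 (adjusted p = 0.387) or B6-13D2 replicate 3 (adjusted p = 0.339). Under the stem cell marker scaling 8 members were called, 4 higher and 4 lower, where 66.1% of all genes were called, 13.0% higher and 53.1% lower. Nodal was then 0.12 and lost its call (adjusted p = 0.124), while Zic2 (-0.53) and Sox3 (-0.63) gained one. The other members called with TMM kept their direction and call, with Lefty2 at 1.21, Lefty1 at 1.16, Pou3f1 at 0.72, Tdgf1 at 0.53, Foxd3 at -1.29 and Fgf5 at -2.83. All 8 fibroblast markers were lower in this contrast, with a median of -2.46.

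When a log2 change of 1 or more was also required, 1 member was called for D2 over B6 (11.3% of all genes), 3 for B6-13D2 over B6 (14.5%) and 0 for D2-13B6 over D2 (8.96%). The counts were 2 for B6-13D2 over D2 (28.1%), 2 for D2-13B6 over B6 (11.6%), 2 between the congenic lines (22.1%) and 4 in the contrast of congenic and parental groups (25.6%).

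Other genes of Nodal and activin signalling were taken from a list of 26, of which 22 were tested. For D2 over B6, 11 were higher, 6 lower and 5 not called (median log2 fold change 0.16). For B6-13D2 over B6, 6 were higher, 14 lower and 2 not called (median -0.34), and for D2-13B6 over D2, 6, 10 and 6 (median -0.12). Under the stem cell marker scaling the counts higher and lower were 16 and 2, 4 and 16, and 5 and 15. Of all genes 29.8% and 30.3%, 25.4% and 32.9%, and 27.6% and 29.7% were called higher and lower with TMM. With the marker scaling the shares of all genes were 61.0% and 9.91%, 12.8% and 47.3%, and 13.6% and 48.1%. Inhba and Inhbb encode subunits of activins, which use the same receptors as Nodal. Inhba had 79.4 ± 5.17 CPM in B6 (SD, n = 3), 118.3 ± 2.64 in D2, 19.0 ± 1.39 for B6-13D2 and 50.5 ± 2.41 for D2-13B6. It was lower in B6-13D2 than in B6 (-2.06) and in D2-13B6 than in D2 (-1.23). Inhbb changed by 0.60 for D2 over B6, -1.57 for B6-13D2 over B6 and -0.83 for D2-13B6 over D2. Fst, an antagonist of activins, was lower in B6-13D2 than in B6 (-1.71), and Pmepa1, a TGF-beta target that dampens the pathway, was lower in D2-13B6 than in D2 (-1.13) and was higher in D2 than in B6 (0.58). The group means of Inhba, Inhbb, Fst and Pmepa1 had the order of the fibroblast marker sum, and the part of fibroblast RNA in them was not tested.

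Receptors and nuclear partners of the pathway were also named by the same rule. Acvr1b, the type I receptor that Nodal uses, had 43.2 ± 1.29 CPM for B6, 29.4 ± 2.03 for D2, 67.5 ± 1.42 for B6-13D2 and 38.6 ± 0.733 for D2-13B6. It was lower in D2 than in B6 (-0.56) and higher in B6-13D2 than in B6 (0.64). Acvr2b, a type II receptor, was higher in D2-13B6 than in D2 (0.68). Foxh1, the DNA-binding partner of SMAD2, was higher in B6-13D2 than in B6 (0.95), from 16.8 ± 1.12 to 32.4 ± 1.34 CPM. Tgif2, a repressor of SMAD targets, was higher in B6-13D2 than in B6 (0.65) and in D2-13B6 than in D2 (0.45). Its relative Tgif1 (-0.42) and Trim33 (-0.53), a SMAD-binding ubiquitin ligase, were lower in D2 than in B6. Pcsk6, a convertase that cleaves the Nodal precursor, had 141.6 ± 6.32 CPM for B6, 106.8 ± 4.25 for D2, 98.5 ± 0.563 for B6-13D2 and 171.5 ± 1.33 for D2-13B6. It was higher in D2-13B6 than in D2 (0.69), lower in D2 than in B6 (-0.41) and lower in B6-13D2 than in B6 (-0.52). The related Pcsk5 was higher in D2 than in B6 (1.12). All values in these paragraphs had an adjusted p under 0.05, and of them only Tgif1 (-0.06, adjusted p = 0.273) and Pcsk6 (-0.05, adjusted p = 0.307), both for D2 over B6, lost a call with the stem cell marker scaling. For D2 over B6 that scaling gave -0.20 for Acvr1b, -0.17 for Trim33, 0.96 for Inhbb and 0.94 for Pmepa1, and for D2-13B6 over D2 it gave 0.23 for Tgif2.

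A list of 18 other formative and primed markers was tested whole. For D2 over B6, 11 were higher, 4 lower and 3 not called (median 0.35). The counts were 5, 7 and 6 for B6-13D2 over B6 (median -0.06) and 11, 5 and 2 for D2-13B6 over D2 (median 0.16). Scaled to the stem cell markers, the counts higher and lower were 14 and 3, 4 and 9, and 7 and 6. Of all genes 29.8% and 30.3%, 25.4% and 32.9%, and 27.6% and 29.7% were called higher and lower with TMM. The scaled fit called 61.0% and 9.91%, 12.8% and 47.3%, and 13.6% and 48.1% of all genes higher and lower. Dnmt3b and Dnmt3a encode de novo DNA methyltransferases. Dnmt3b had 96.2 ± 5.01 CPM for B6, against 172.2 ± 5.93 for D2, 150.6 ± 1.35 for B6-13D2 and 181.2 ± 3.82 for D2-13B6, and was higher in B6-13D2 than in B6 (0.65). Dnmt3a had 75.9 ± 2.77, 48.2 ± 1.17, 51.2 ± 2.86 and 97.5 ± 1.20 CPM in the same order. It was lower in D2 than in B6 (-0.65, and -0.29 scaled to the stem cell markers) and higher in D2-13B6 than in D2 (1.02). Lin28a, an RNA-binding inhibitor of let-7, was lower in D2 than in B6 (-1.51), with 67.0 ± 1.73 against 191.4 ± 8.04 CPM. Lef1, a nuclear partner of beta-catenin, was higher in D2 than in B6 (1.59), with 24.6 ± 1.05 against 8.12 ± 0.531 CPM.

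Among the remaining transcription factors of that list, Tcf15 was higher in B6-13D2 than in B6 (1.20) and Grhl2 was higher in D2-13B6 than in D2 (1.13). Etv4, an ETS factor downstream of FGF signalling, was higher in D2 than in B6 (1.30) and in B6-13D2 than in B6 (0.78), and lower in D2-13B6 than in D2 (-1.03). Sox11 was lower in D2 than in B6 (-0.73, and -0.37 scaled to the stem cell markers). Sox4 was lower in B6-13D2 than in B6 (-1.31) and in D2-13B6 than in D2 (-0.95), as was Cdh2, which encodes N-cadherin (-1.76 and -0.85). The group means of both had the order of the fibroblast marker sum, and the part of fibroblast RNA in them was not tested. Krt18, a keratin, had 7.50 ± 1.18 CPM for B6, 9.58 ± 0.343 for D2, 4.44 ± 0.317 for B6-13D2 and 16.1 ± 0.707 for D2-13B6. It was lower in B6-13D2 than in B6 (-0.76) and higher in D2-13B6 than in D2 (0.75) and in D2 than in B6 (0.35, and 0.71 scaled to the stem cell markers). Fgf15, a growth factor at 0.36 to 2.42 CPM in the group means, was higher in D2 than in B6 (1.70) and in D2-13B6 than in D2 (0.99). Of 14 naive and core pluripotency genes, 0 were higher and 13 lower for D2 over B6, 9 and 4 for B6-13D2 over B6, and 10 and 1 for D2-13B6 over D2. The list holds all 5 stem cell markers, and scaled to those markers its counts were 3 and 7, 3 and 5, and 3 and 5. The shares of all genes for both fits are those given with the other formative and primed markers.

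Genes whose pattern over the 4 group means was most like that of a member were found for the 4 members with the widest range, by the root-mean-square difference of centred log2 CPM among 11052 candidates. With 4 points per gene this is a description. For Fgf5 they were Palm2 (0.0136), Helz2 (0.0145) and Dab2 (0.0275), the last of which is on the primitive endoderm list. Dab2 was highest in D2 (29.7 CPM) and lowest in B6-13D2 (7.92), as was the fibroblast marker sum. Fgf5 had only 3 to 5 counts in B6-13D2 libraries, so its own pattern is uncertain. For Lefty2 they were Prrt4 (0.0962), Podxl (0.101) and Fermt3 (0.111). For Lefty1 they were Rmi2 (0.0394), A830018L16Rik (0.0537) and Tcf15 (0.059). For Tdgf1 they were Itgb4 (0.0176), BC030867 (0.0249) and Ccdc43 (0.0257), all of them on chromosome 11.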

How the data were processed

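The values the authors deposited are expected counts for each Ensembl gene ID and library, that is, estimates that can be fractional. EMASE, named in the title of that table, divides reads that map to several places among genes or alleles. Of all values, 88.1% were whole to within 1e-06. Bowtie 1.0.0, edgeR 3.34.1 and the build mm10 are named, without role or order, per the submitters' processing notes. Annotation release, filters and strand use are not given in the sources used here. Per the labels' protocols, libraries were made with an mRNA kit and read as 150-base pairs.

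Groups and replicate numbers were taken from the sample titles, and 0 per-sample columns were left unmapped. Of 43346 gene IDs, 42462 matched GENCODE M21, which gave symbols, positions, exon lengths and, from its transcripts, the Lefty sequences. No genome or protein table was used here. Expected counts were rounded and tested with edgeR 4.0.16 under R 4.3.3. Genes passed filterByExpr (minimum count 10, grouped), libraries were scaled by TMM, and 4 group means were fitted to 12 libraries by quasi-likelihood (common dispersion 0.001834), with Benjamini-Hochberg adjustment over 17148 genes within each contrast at 0.05. CPM use TMM-scaled library sizes. The standard error is the size of the log2 fold change over the root of its F statistic, and intervals are 1.96 standard errors on each side. The code was tested on simulated data.

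The members and lists were chosen with earlier results of these data known. The lists are Nodal pathway, other formative and primed, naive and core pluripotency, streak and mesendoderm, neural progenitor, primitive endoderm, trophoblast and fibroblast genes. All members are named. From the first 2 lists, the called genes with the 3 highest and 3 lowest log2 fold changes are named in D2 against B6 and in each congenic line against its background strain. Genes most like a member were protein-coding genes whose mean log2 CPM was 2 or more.

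The alternatives replaced TMM by RLE, edgeR by DESeq2 1.42.0, and the filter by none or by a mean CPM from 1 up. Others required a log2 change of 1 or more in either direction, added a replicate block, fitted the compared libraries alone, left out each library once, or took the longest transcript as length. Summing Lefty1 with Lefty2 and scaling to 5 stem cell markers were chosen after seeing the data.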

Additional observations from a re-analysis of the deposited data

Results flagged for a closer look

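For 7 of the 10 members the difference that goes with the chromosome 13 segment was not the same on both backgrounds by edgeR's test of that difference itself (B6-13D2 minus B6, less D2 minus D2-13B6, in log2, adjusted over all tested genes). Positive values were 1.62 for Lefty2 (adjusted p = 2.18e-15), 1.57 for Lefty1 (adjusted p = 1.37e-08), 1.13 for Pou3f1 (adjusted p = 1.24e-05), 0.93 for Tdgf1 (adjusted p = 7.37e-12) and 0.52 for Nodal (adjusted p = 2.19e-06). Nodal was 0.12 and lost its call (adjusted p = 0.124) with the stem cell marker scaling, where Zic2 (-0.53) and Sox3 (-0.63) were called. Lefty2 (1.21), Lefty1 (1.16), Pou3f1 (0.72) and Tdgf1 (0.53) kept their calls at lower values with that scaling. Negative values were -0.89 for Foxd3 (adjusted p = 3.44e-07) and -2.44 for Fgf5 (adjusted p = 0.00269). All 8 fibroblast markers were also lower in this contrast, with a median of -2.46, and their part in the members' values was not tested. Across all tested genes 64.5% passed the same test, so passing it does not set the members apart. The contrast equals both congenic lines minus both parental strains, and a difference between backgrounds and other features of the congenic libraries cannot be told apart. Nor can an effect of unequal segments, since the labels name different segment ends for B6-13D2 and D2-13B6.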

How the results depend on the processing

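Values below are log2 fold changes unless said to be counts. When changes also had to reach 1 in either direction, the members called fell to 1 for D2 over B6, 3 for B6-13D2 over B6, 0 for D2-13B6 over D2 (where 7 passed edgeR's adjusted p), 2 for B6-13D2 over D2, 2 for D2-13B6 over B6, 2 between the congenic lines and 4 in congenic minus parental. Of all genes 11.3%, 14.5%, 8.96%, 28.1%, 11.6%, 22.1% and 25.6% passed both limits in these comparisons. Leaving out each library in turn gave 5 to 7, 9 to 10, 7 to 8, 6 to 7, 5, 6 to 7 and 7 to 8 members called in the same order. With all libraries kept, 60.0%, 58.3%, 57.3%, 74.6%, 59.0%, 70.2% and 64.5% of all genes were called.

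Of the members' 70 results, reversals under the planned settings were all of results that were not called. Pou3f1 in D2 against B6 was 0.0294 after RLE scaling, 0.0288 by DESeq2 and 0.0265 under the stricter filter (mean CPM from 1 up), and ranged from -0.0830 to 0.0268 over the libraries left out. Foxd3 in D2-13B6 against D2 was -0.0372 under the stricter filter and ranged from -0.0480 to 0.0684. Foxd3 between the congenic lines was -0.0135 with only the libraries compared and ranged from -0.0520 to 0.0936. Foxd3 in B6-13D2 against D2 ranged from -0.0946 to 0.0513 and Fgf5 in D2-13B6 against B6 from -0.22 to 0.14. After RLE scaling or by DESeq2, Zic2 (0.14) and Nodal (0.13) in D2-13B6 against B6 were called, and Sox3 in B6-13D2 against D2 was called under the stricter filter (adjusted p = 0.0492). That Sox3 difference was -0.42 in the main fit (adjusted p = 0.0601) and was also called without D2 replicate 3 (-0.56, adjusted p = 0.0136).

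Scaling to the stem cell markers shifted the median of all genes by 0.36 (D2 against B6), -0.19 (B6-13D2 against B6), -0.22 (D2-13B6 against D2), -0.55 (B6-13D2 against D2), 0.14 (D2-13B6 against B6), 0.33 (between the congenic lines) and -0.40 (congenic minus parental). After subtracting these shifts, each member's value was within 0.0092 of its TMM value. New library sizes move all genes of a contrast by nearly the same amount, so this closeness was fixed in advance. With the shift included, 11 of 70 results reversed: Pou3f1 (0.34) and Zic2 (0.25) in D2 against B6, Zic2 (-0.0237) and Foxd3 (-0.22) in D2-13B6 against D2, Otx2 (-0.43), Nodal (-0.10), Lefty1 (-0.14) and Lefty2 (-0.53) in B6-13D2 against D2, Tdgf1 (0.0286) in D2-13B6 against B6, Pou3f1 (0.16) between the congenic lines and Otx2 (-0.12) in congenic minus parental. Of 48 calls 10 were lost, 15 were gained, and 53 stood with that scaling.

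The replicate numbers do not pair the libraries: over 18 same-numbered pairs from different groups the mean correlation of deviations was -0.0108 and 0 pairs were over 0.1. With the number as a replicate block, 8 members were called in D2 against B6, with Zic2 (adjusted p = 0.0364) and Sox3 (adjusted p = 0.0497) added, and 10, 7, 6, 5, 7 and 7 in the other contrasts. Of 17148 tested genes, 10167 were then called in D2 against B6, and 9911, 9664, 12706, 10026, 11912 and 10966 in the others. A fit of only the libraries compared cannot differ for congenic minus parental, and the stricter filter leaves no value for Fgf5. Few counts limit Fgf5 (3 to 30 in a library), Sox3 (29 to 106) and Otx2 (46 to 106).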

Other observations

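Genes that follow the primed state mark the way to the primitive streak or to neural tissue. Of 10 streak and mesendoderm markers 7 were tested, with 1 higher and 2 lower for D2 over B6, 1 and 3 for B6-13D2 over B6, and 1 and 2 for D2-13B6 over D2 (edgeR, adjusted p under 0.05). Of all genes 29.8% and 30.3%, 25.4% and 32.9%, and 27.6% and 29.7% were called higher and lower in these comparisons. Scaled to the stem cell markers, the list's counts were 2 and 2, 1 and 3, and 0 and 2. The shares of all genes were then 61.0% and 9.91%, 12.8% and 47.3%, and 13.6% and 48.1%. Eomes, a T-box factor of the streak that Nodal signalling activates, had 10.7 ± 1.48 CPM for B6 (SD, n = 3), 5.38 ± 0.327 for D2, 14.2 ± 1.29 for B6-13D2 and 4.16 ± 0.269 for D2-13B6. Gsc, another target of Nodal signalling, had 2.61 ± 0.615, 0.933 ± 0.108, 3.42 ± 0.448 and 1.03 ± 0.086 CPM in the same order. Both were lower in D2 than in B6 (-0.99, adjusted p = 4.77e-07, and -1.48, adjusted p = 1.37e-05) and Eomes was higher in B6-13D2 than in B6 (0.41, adjusted p = 0.00127), where Gsc did not pass (0.39, adjusted p = 0.0788). Scaled to the stem cell markers, these Eomes values were -0.62 and 0.23, both called. Evx1, a homeobox factor of the streak, went the other way at 0.488 ± 0.132 CPM in B6 and 1.80 ± 0.477 in D2 (1.85, adjusted p = 0.000158), and was lower in D2-13B6 than in D2 (-2.12, adjusted p = 2.98e-05). Its group means had the order of the fibroblast marker sum, and the part of fibroblast RNA in them was not tested. T (Brachyury) was lower in B6-13D2 than in B6 (-0.88, adjusted p = 0.00124), with 1.28 ± 0.237 against 2.34 ± 0.541 CPM. These 4 genes were chosen after their values were seen.

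Of 11 neural progenitor markers 8 were tested, with 5 higher and 1 lower for D2 over B6, 1 and 4 for B6-13D2 over B6, and 1 and 5 for D2-13B6 over D2. Scaled to the stem cell markers, these were 6 and 1, 1 and 5, and 0 and 6. The shares of all genes for both fits are those given with the streak list. Nes and Tubb3 made up most of the neural markers' level, at 27.2 to 49.1 and 51.6 to 71.6 CPM in the group means. Sox1, the earliest of these in the neural plate, had 7.04 ± 1.00 CPM in B6-13D2, and 3.02 ± 0.297 in B6, 3.74 ± 0.180 in D2 and 3.12 ± 0.254 in D2-13B6. It was higher in B6-13D2 than in B6 (1.22, adjusted p = 3.38e-07), while Zic1 fell there (-1.69, adjusted p = 3.53e-08). The group means of Zic1 also had the order of the fibroblast marker sum, whose part in them was not tested. The genes named were chosen after their values were seen.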
